A study of Mus musculus with 2 samples.

Results

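Mitotic genes encode the machinery that condenses, aligns and separates chromosomes and then divides the cell. The group described here is a list of 36 such genes, given by name. Probes on the array were matched to the names through the accessions in the scanner files and a RefSeq gene table. In this way 35 of the 36 genes had a probe, and Prc1 was matched to none. The whole array had 31926 genes with a probe, where each accession without a symbol counts as a gene. RNA came from the ventral prostate of FVB/N mice (the strain is also spelled FBV/N in the labels) at 6 months of age. The labels give the tissue of both arrays as ventral prostate, while their text on the animals also names the dorsolateral lobes. A pool of 6 wild type mice was set against a pool of 6 ARR2PB-miR32 transgenic mice, in which ARR2PB, a composite probasin promoter active in androgen-dependent prostate epithelium, drives the microRNA miR-32. The pair of pools was hybridised on 2 two-colour arrays. On array 1 the transgenic pool was labelled with Cy3 and the wild-type pool with Cy5, and on array 2 the dyes were swapped. Both arrays measure the same pools, so a genotype is 1 replicate without a test of significance, and every SD given is the technical spread of the 2 arrays (n = 2) without the spread between mice.

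A dividing cell enters mitosis when the kinase CDK1 joins with cyclin A and cyclin B. The chromosomal passenger complex and the spindle checkpoint hold the cell until every kinetochore is attached to the spindle, after which CDC20 turns on the anaphase-promoting complex and the cyclins are destroyed. Transcripts of these genes accumulate late in the cell cycle and are shut off in resting cells, so their level in a tissue is commonly read as a measure of cycling cells. The adult prostate is a slowly renewing gland in which few epithelial cells divide, and cycling leukocytes and stromal cells carry the same transcripts. In RNA from the whole gland, fewer cycling cells and less of each RNA per cell cannot be told apart.

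The microRNA that the transgene carries is shown first, from RefSeq, with its seed (bases 2 to 8) in capitals. The arrays did not measure it.
mmu-miR-32-5p: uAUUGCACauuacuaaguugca
Many promoters of mitotic genes share the letters TTTGAA, or in a variant form TTCGAA, known as the cell cycle genes homology region, which the DREAM complex binds in resting cells and the MuvB complex with MYBL2 and FOXM1 binds in dividing ones. They also hold CCAAT boxes, the site of NF-Y. The promoters of the 4 genes with the lowest mean ratios among those above background in both pools follow, as RefSeq gives them for GRCm38.p6, from 250 bases before to 50 after the start site. Capitals mark either form of the homology region and CCAAT, each searched on both strands.
Mki67, chr7:135716330-135716629, minus strand: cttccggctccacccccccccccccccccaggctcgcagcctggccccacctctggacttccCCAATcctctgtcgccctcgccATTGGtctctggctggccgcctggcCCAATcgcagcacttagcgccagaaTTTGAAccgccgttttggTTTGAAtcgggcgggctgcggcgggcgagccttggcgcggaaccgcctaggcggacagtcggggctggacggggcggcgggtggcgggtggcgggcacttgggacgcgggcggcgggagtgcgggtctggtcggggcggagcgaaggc
Birc5, chr11:117848987-117849286, plus strand: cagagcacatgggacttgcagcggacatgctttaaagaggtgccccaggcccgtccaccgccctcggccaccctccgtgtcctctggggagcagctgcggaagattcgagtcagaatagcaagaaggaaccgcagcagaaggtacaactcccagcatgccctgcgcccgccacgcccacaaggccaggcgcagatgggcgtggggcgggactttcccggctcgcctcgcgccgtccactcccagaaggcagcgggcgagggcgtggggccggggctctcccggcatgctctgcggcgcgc
Cdc20, chr4:118437294-118437593, minus strand: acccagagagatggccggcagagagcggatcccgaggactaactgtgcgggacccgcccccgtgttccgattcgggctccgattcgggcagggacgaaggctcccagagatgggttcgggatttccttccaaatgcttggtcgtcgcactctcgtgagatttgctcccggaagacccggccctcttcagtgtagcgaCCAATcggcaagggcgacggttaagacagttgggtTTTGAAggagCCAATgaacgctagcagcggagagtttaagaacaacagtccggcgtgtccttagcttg
Ccnb2, chr9:70421505-70421804, minus strand: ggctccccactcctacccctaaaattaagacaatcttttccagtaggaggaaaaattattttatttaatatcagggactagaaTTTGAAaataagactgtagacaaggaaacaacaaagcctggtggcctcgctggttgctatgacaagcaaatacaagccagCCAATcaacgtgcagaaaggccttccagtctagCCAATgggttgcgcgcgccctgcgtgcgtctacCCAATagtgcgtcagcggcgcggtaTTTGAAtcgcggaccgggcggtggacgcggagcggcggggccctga
Mki67 holds TTTGAA 2 times, from -116 to -111 and from -98 to -93 before the start site, and CCAAT 3 times. Cdc20 holds TTTGAA from -18 to -13 with CCAAT on either side of it. Ccnb2 holds 3 CCAAT boxes upstream of the start site and TTTGAA from 5 to 10 after it, with another TTTGAA farther upstream. The Birc5 window holds none of these letters, which says only that they are absent from this window. The window of Cenpe, whose mean ratio lay between those of Cdc20 and Ccnb2 but whose transgenic signal was not above background in Cy5, held CCAAT 1 time and neither form of the homology region. Of 33 promoter windows of 31 listed genes in the table, 27 held TTTGAA or TTCGAA (81.8%), against 19.2% of all 32851 promoters. CCAAT stood in 26 of the 33 (78.8%), against 37.4% of all, and both kinds of letters stood in 24 (72.7%), against 7.52%. Promoters of S phase genes, which are switched on earlier in the cycle, held TTTGAA or TTCGAA in 4 of 23 windows (17.4%) and CCAAT in 16 (69.6%). These are matches of letters, not measured binding, and in the windows shown no match overlaps another.

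Many mitotic genes lay near background in the ventral prostate, and they were seen more often in the wild-type pool. The dyes differ in background, with a median of 26 intensity units around Cy3 spots on both arrays against 112.5 and 116 around Cy5 spots, so detection was compared within a dye. In Cy3, 34 of 35 genes were well above background in the wild-type pool and 31 in the transgenic pool. The 3 genes seen in wild type alone were Ccnb1, Kif11 and Nuf2, a share to be read against 4.6% of all genes seen in Cy3 of the wild type alone and 2.5% in the transgenic pool alone. In Cy5, 18 genes were well above background in the wild-type pool and 9 in the transgenic pool, and 0 were seen in the transgenic pool alone. Over all genes, 42.1% and 39.1% were detected in Cy5, with 4.52% in the wild type alone and 1.51% in the transgenic pool alone. Ttk was above background in neither pool. For the S phase genes the Cy5 counts were 19 and 18 of 27.

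Nearly all mitotic genes had a lower signal in the transgenic pool, mostly by less than 2-fold. Signals are given after background correction and normalisation, in arbitrary units that include a constant of 50 added to each signal, which pulls the ratios of dim genes toward 0. Log2 ratios are transgenic over wild type. Of 35 genes, 30 were below 0 on both arrays and 0 were above 0 on both, while 24% of all genes with a probe were below 0 on both arrays and 24.2% above. These counts include dim genes, since 18 of the 35 were well above background on both arrays in at least 1 pool. For 9 of the 18 this was the wild-type pool alone. The median over the 35 genes was -0.39, or -0.40 on array 1 and -0.42 on array 2, beside 0.0082 for all genes. For 27 genes both transgenic signals lay below both wild-type signals, and for the other 8 the pools overlapped, against 18.3% of all genes apart in this direction and 18.4% in the other. The exceptions were Bub1, Bub1b, Ttk, Melk, Foxm1, Nuf2, Kif11 and Kif2c.

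**Figure D1:**
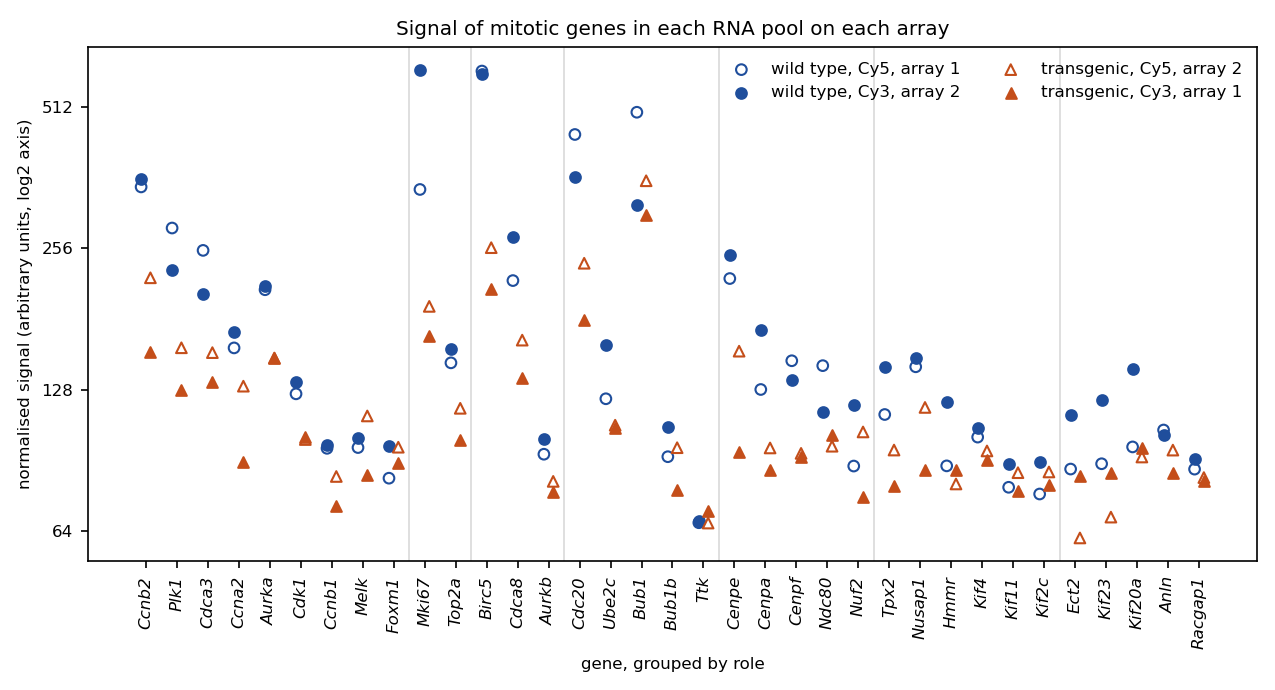
Normalised signal (arbitrary units, log2 axis) of each of the 35 mitotic genes in the wild-type pool (blue circles) and the transgenic pool (orange triangles), with Cy3 filled and Cy5 open, and thin lines between roles. Triangles lie below the circles for 27 genes, with the widest gaps at Birc5 and Mki67. They overlap at the brighter gene Bub1 and at genes near the bottom of the range such as Ttk.

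A 2-fold rule asked for a mean log2 ratio past 1 or -1 and for a change of one sign past 1.5-fold on array 1 and on array 2 alike. Mki67 and Birc5 alone passed it. These are 2 of the 35 genes, and 1.54% of all genes with a probe were lower by this rule (3.53% of those detected in at least 1 pool). In the higher direction 0 of 35 passed, against 0.473% of all genes and 1.09% of detected ones. Under a looser rule, a mean past 1.5-fold with the same sign on the arrays and no minimum on a single array, 11 of 35 were lower, against 3.49% of all genes and 7.75% of detected ones. Both pools exceeded background by the scanner's flag, in either dye, for 9 genes, namely Mki67, Birc5, Cdca8, Ccnb2, Plk1, Aurka, Cdca3, Cdc20 and Bub1. Their median was -0.85, beside 0.028 for all genes that met the same condition, and 8 of the 9 were below 0 on both arrays, against 23.6%. By the 2-fold rule 2 of the 9 were lower and 0 higher, against 2.22% and 1.05% of genes, and under the looser rule 7 were lower, against 5.44%. On array 1 alone 5 of the 9 were at least 2-fold lower, against 2.94%, and on array 2 alone 2, against 2.97%.

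Among proteins of the chromosome, Mki67 encodes the Ki-67 antigen that coats mitotic chromosomes and is the usual stain for proliferating cells. Its signal was 342 and 613 in the wild-type pool and 167 and 193 in the transgenic pool, on arrays 1 and 2 in that order. Both transgenic values lay below both wild-type ones, at -1.35 ± 0.45 or 2.55-fold lower, and a second probe gave -0.93 ± 0.33. Top2a, the topoisomerase that untangles sister chromatids, read 146 and 156 in wild type and 99.9 and 117 in the transgenic pool, a difference of -0.48 ± 0.09 that its other probe matched at -0.41. Staining of tissue sections for proliferating cells was not analysed here, and these values are of RNA from the whole gland.

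The chromosomal passenger complex corrects faulty attachments of chromosomes to the spindle. Birc5, its survivin subunit, had the lowest mean ratio of the group. Its signal was 611 and 603 in wild type and 210 and 257 in the transgenic pool, so that the pools were far apart on both arrays, at -1.39 ± 0.22 or 2.62-fold lower. Cdca8, the borealin subunit, read 219 and 271 against 136 and 163, a ratio of -0.71 ± 0.03, while its other probe gave -0.21. The kinase of the complex, Aurkb, was close to background in Cy5 and stood at -0.28 ± 0.02.

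Of the 9 regulators of mitotic entry, 0 passed the 2-fold rule and 7 were below 0 on both arrays. Ccnb2, a B-type cyclin, read 346 and 359 in wild type and 154 and 222 in the transgenic pool, and stood at -0.93 ± 0.33. Plk1, the polo kinase that drives centrosome maturation and mitotic entry, read 283 and 230 against 128 and 157, at -0.85 ± 0.42. Both genes were lower on each array but past 2-fold on array 1 alone. Cdca3, a trigger of mitotic entry, was at -0.67 ± 0.36, although its dim second probe gave 0.13. Aurka, the centrosomal Aurora kinase, differed by the same amount on both arrays, with 209 and 213 against 150 and 150, at -0.50 ± 0.02. Ccna2, the cyclin of S phase and early mitosis, stood at -0.59 ± 0.30, and its transgenic signal was above background in Cy3 alone. Cdk1, the kinase itself, stood at -0.36 ± 0.07 by its brighter probe and at 0.08 by a probe near background. Ccnb1, the main mitotic cyclin, read 96.1 and 97.6 in wild type and 72.6 and 83.7 in the transgenic pool, where none of its 3 probes was above background, and its ratio was -0.31 ± 0.13. In Cy3 before correction, its spot gave 77 units over a local background of 24 in the wild-type pool and 40 over 26 in the transgenic pool. The kinase gene Melk, at -0.02 ± 0.25, and Foxm1, the transcription factor that activates G2 and M phase genes, at 0.05 ± 0.08, differed in sign between the arrays.

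In the spindle checkpoint and the anaphase-promoting complex, the activator Cdc20 read 448 and 363 in wild type and 181 and 238 in the transgenic pool. All its transgenic values were the lower ones, at -0.96 ± 0.50. Ube2c, the ubiquitin-conjugating enzyme of the complex, stood at -0.39 ± 0.25. The checkpoint kinase Bub1 was the exception among the genes above background in both pools. It read 499 and 318 in wild type and 301 and 357 in the transgenic pool, so the pools overlapped and the arrays disagreed in sign, at -0.28 ± 0.63. Its other probe, not above background in the transgenic pool, gave -0.55 ± 0.42. The checkpoint protein Bub1b was at -0.19 ± 0.07 and the undetected kinase Ttk at 0.03 ± 0.07.

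All 5 centromere and kinetochore genes were below 0 on both arrays, with a median of -0.60, and in each the transgenic pool missed the detection threshold in Cy5. Cenpe, the kinetochore motor that brings chromosomes to the metaphase plate, read 221 and 249 in wild type and 94.2 and 155 in the transgenic pool. The pools did not overlap, at -0.96 ± 0.39, but its other probes, both dim, gave -0.07 and -0.02. Cenpa, the histone that marks the centromere, stood at -0.70 ± 0.19, with 128 and 172 against 86.2 and 96.2. Cenpf was at -0.60 ± 0.12, while its other probe, above background in neither pool, gave -0.09. The microtubule-binding Ndc80 complex members Ndc80 and Nuf2 were at -0.37 ± 0.18 and -0.21 ± 0.02. In the transgenic pool Nuf2 was not above background in either dye. Compared within a dye across the arrays, Nuf2 stood at -0.85 in Cy3 and 0.04 in Cy5, and Ndc80 at -0.05 and -0.47.

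Spindle and cytokinesis genes lay near background, and 0 of these 11 was above background in both pools in both dyes. Tpx2, which activates Aurora A on the spindle, read 113 and 143 in wild type and 79.7 and 95.3 in the transgenic pool, at -0.55 ± 0.05. Nusap1, a microtubule-bundling protein, was at -0.54 ± 0.27. The remaining spindle genes Hmmr, Kif4, Kif11 and Kif2c lay between -0.30 and -0.0034. A dim second probe gave -0.02 for Hmmr and, with the opposite sign, 0.16 for Kif4. In cytokinesis, the cleavage furrow gene Ect2 (-0.46 ± 0.58) and the central spindle motors Kif23 (-0.45 ± 0.54) and Kif20a (-0.32 ± 0.43) had means that came mostly from array 2, and on array 1 they stood at -0.05, -0.07 and -0.0098. Anln, the scaffold of the contractile ring, was at -0.20 ± 0.14 and Racgap1, the partner of Kif23, at -0.11 ± 0.03.

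**Figure D2:**
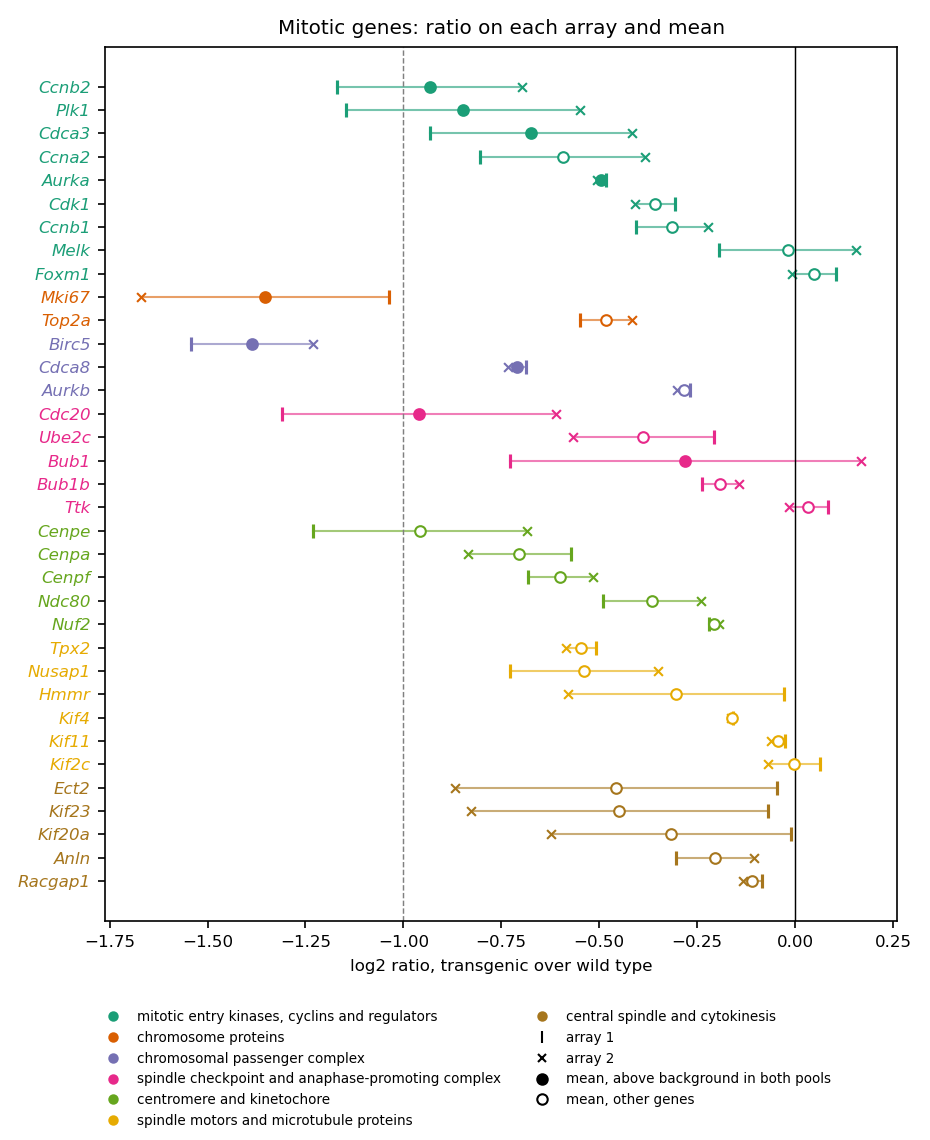
Log2 ratio of transgenic over wild type for each mitotic gene on array 1 (bar), array 2 (cross) and as their mean (dot, filled where both pools were above background on both arrays), coloured by role. The means of 33 of 35 genes lie left of 0, and those of Birc5 and Mki67 pass the dashed line at -1.

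A comparison within each dye, across the arrays, was added after the values had been seen. In Cy3, the more sensitive dye, 34 of 35 genes were lower in the transgenic pool, against 42.9% of all genes, and 7 were at least 2-fold lower, against 2.12%. The 7 were Mki67 (-1.92), Birc5 (-1.49), Cenpe (-1.49), Ccnb2 (-1.23), Cenpa (-1.10), Cdca8 (-1.01) and Ccna2 (-1.01). In Cy5, 30 genes were lower, against 46.8%, and Birc5 alone (-1.23) was at least 2-fold lower, against 1.34%. The median over the 35 genes was -0.54 in Cy3 and -0.35 in Cy5. With plain background subtraction and no added constant, the Cy3 ratio could be formed for the 31 genes above background in both pools. All 31 were lower in the transgenic pool, against 49.5% of genes, and 20 were at least 2-fold lower, against 5.69%, with a median of -1.24. On that scale Mki67 stood at -2.32, Cenpe at -2.31, Tpx2 at -2.08 and Cenpa at -2.06.

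**Figure D3:**
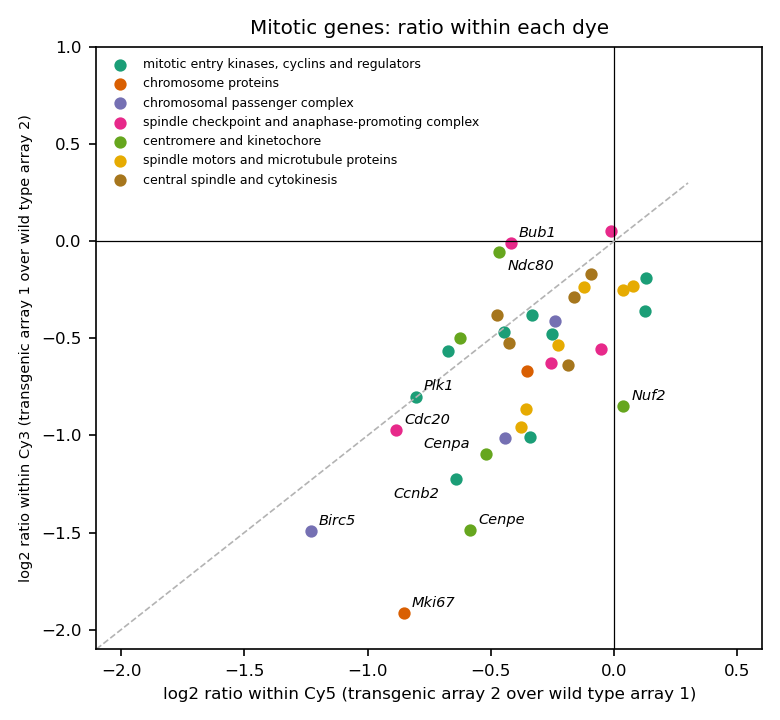
Log2 ratio of transgenic over wild type within Cy5 (horizontal axis) and within Cy3 (vertical axis) for each mitotic gene, coloured by role, with the dashed line marking equal values. Of 35 genes 29 lie below 0 in both dyes, and most sit below the dashed line, with larger differences in Cy3 than in Cy5.

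The size of the differences depended on how background was handled. The 9 genes above background in both pools had a mean of the 2 arrays below 0 under each of the settings that follow. On array 2 alone, Bub1 stood at 0.17. With a constant of 16 in place of 50, 5 of the 9 genes above background in both pools were lower by the 2-fold rule, against 2.56% of genes, adding Ccnb2, Cdc20 and Plk1. With Feature Extraction's own ratios, which add no constant, 6 of the 9 passed, with Cdca8 as well, against 3.13%. The authors' deposited series table has the same ratios shifted by a constant on each array (-0.08 and -0.05), so it is no separate measurement, and the same 6 passed in it, against 3.45% of its genes. There Mki67 stood at -2.19 ± 0.16, Birc5 at -1.85 ± 0.06, Ccnb2 at -1.43 ± 0.22, Cdca8 at -1.36 ± 0.37, Plk1 at -1.32 ± 0.04 and Cdc20 at -1.23 ± 0.13. Aurka (-0.74 ± 0.08), Cdca3 (-0.99 ± 0.20) and Bub1 (-0.30 ± 0.80) did not. When arrays were centred on their median and not by loess, 1 of the 9, Birc5, passed, against 1.32% of genes. Mki67 then missed the rule on single arrays, although its mean was -1.41.

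Other genes of mitosis and its regulators came from lists that hold none of the 36. Of 96 such genes with a probe, 44 were below 0 on both arrays (45.8%) and 10 above, with a median of -0.11, where the mitotic genes had 85.7% below 0. By role, the medians were -0.21 for 21 further kinetochore and checkpoint genes, -0.11 for 25 further spindle, centrosome and cytokinesis genes, -0.13 for 15 condensin, cohesin and separase genes and -0.06 for 17 regulators of entry and exit, several of which act outside mitosis too. These medians include dim genes, whose ratios the added constant pulls toward 0. Within Cy3 without that constant, the medians were -0.58, -0.81, -0.48 and -0.06 in that order. Those values cover only genes above background in Cy3 in both pools. Stmn1, which destabilises microtubules, was the 1 gene lower by the 2-fold rule, with 1095 and 1043 in wild type and 461 and 571 in the transgenic pool, at -1.06 ± 0.27. Also among the 96, the genes of the DREAM and MuvB complexes and their partners, a list that includes E2F and DP factors, had a median of 0.0093 over 18 genes, although the medians on the single arrays were -0.06 and -0.11. Among them Rbbp4, a histone-binding subunit, was higher at 1.38 ± 0.50. Of the S phase genes 20 of 27 were below 0 on both arrays, with a median of -0.29 beside -0.39 for the mitotic genes. Over genes above background in both pools the medians were -0.48 and -0.85 in that order, and within Cy3 without the added constant -0.71 and -1.24. Of these Mcm5, a subunit of the replication helicase, passed the 2-fold rule at -1.02 ± 0.29.

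**Figure D4:**
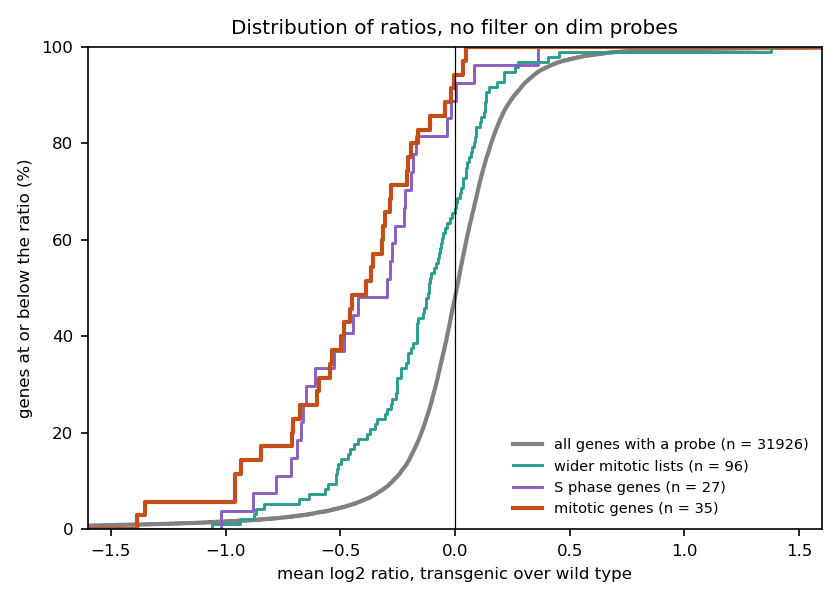
Cumulative share of genes (%) at or below each mean log2 ratio of transgenic over wild type, for all genes with a probe (grey), the wider mitotic lists (green), S phase genes (purple) and the 35 mitotic genes (orange). The orange and purple curves lie left of the grey curve, with medians of -0.39 and -0.29, and the green curve lies between them and the grey one.

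Markers of leukocytes were lower in the same pool, and the median of each leukocyte list lay below that of the mitotic genes. Over genes above background in both pools, the mitotic median was -0.85. By that filter B and plasma cell markers stood at -3.54 (3 genes), pan-leukocyte markers at -1.70 and macrophage and dendritic cell markers at -1.39. T and NK cell markers stood at -0.76 (2 genes), which was not lower than the mitotic genes. By the 2-fold rule 8 of 8 pan-leukocyte markers were lower, among them Cd52 (-2.79 ± 0.18) and Ptprc (-2.57 ± 0.03), with summed signals of 12091 and 13800 in wild type and 2780 and 2906 in the transgenic pool. For B and plasma cells, 8 of 11 were lower, and the sums were 22638 and 25774 against 2413 and 2723. Jchain alone made up 16124 and 18062 of these in wild type and 1497 and 1442 in the transgenic pool. T and NK cell markers were lower for 6 of 11, with sums of 2412 and 2714 against 1034 and 1373, and macrophage and dendritic cell markers for 7 of 14, with sums of 13456 and 15702 against 4387 and 4795. In the transgenic pool 2 of the B and plasma cell markers and 3 of the T and NK cell markers were not above background on either array. Fibroblast markers had a median of -0.70, with 2 of 8 lower, and their summed signals varied widely within a pool, at 15171 and 34471 in wild type and 14558 and 8710 in the transgenic pool. Dcn alone made up 10702 and 28933 of these in wild type and 11685 and 6004 in the transgenic pool. Basal epithelium markers stood at -0.38, smooth muscle at -0.30 and endothelium at -0.15, with 0 lower by the rule in each. Luminal epithelium markers had a median of 0.23, with 0 of 10 past the rule and sums of 92676 and 81339 in wild type and 89726 and 102740 in the transgenic pool. The defining markers of the ventral prostate were all well above background in both pools, with Spink1 and Sbp lower by the rule. What part these cell types have in the lower mitotic signals was not tested.

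**Figure D5:**
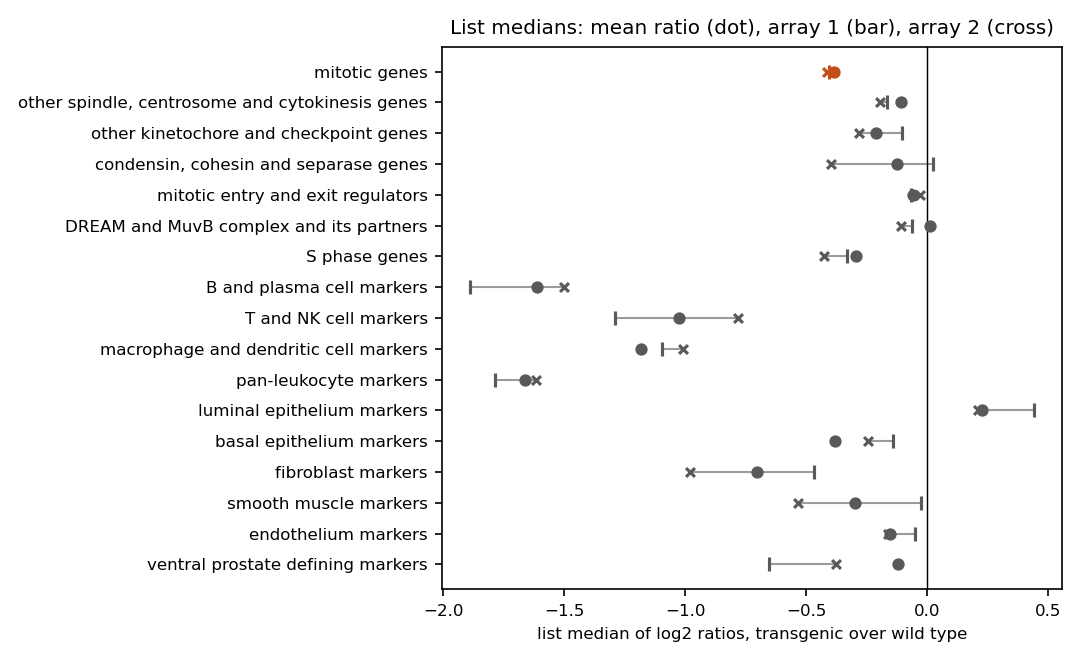
Median log2 ratio of transgenic over wild type for the mitotic genes (orange) and each other gene list (grey), from the mean ratio of each gene (dot) and on array 1 (bar) and array 2 (cross) alone. The leukocyte lists lie between -1.03 and -1.66, the mitotic genes at -0.39 and the luminal markers at 0.23.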

How the data were processed

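The authors deposited 2 Agilent scanner files made with Feature Extraction 11.0.1.1, per the file headers, with spot and local background intensity for Cy3 and Cy5, detection flags and the program's log10 ratio. They also deposited a value table of log2 ratios for the series, whose columns both had a median of 0. Its normalisation is not stated in the labels or headers, and it was read as an alternative. The RNA pools, dyes, strain and age are per the labels.

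Median spot signals were background-corrected with normexp (offset 50) and normalised by loess within each array in limma 3.58.1 (R 4.3.3), with control and outlier spots at weight 0, and ratios were turned to transgenic over wild type and averaged over the arrays. Signals per pool come from a further Aquantile step. A gene was detected if well above background on both arrays in at least 1 pool, and was read from its detected probe of highest mean intensity, or its brightest probe if none was detected. Every one of the 36 genes with a probe is named. From the wider mitotic and S phase lists, genes past the 2-fold rule are named. From the marker lists such genes are counted, and few are named. Of 41174 probes, 27816 were matched to a symbol. The other 13358 were grouped by accession, and each such accession counts as a gene in the shares over all genes. Repeated spots of the 245 probes printed 10 times varied by a median SD of 0.21 and 0.18 log2 units. The number of arrays limits the precision. The genes and lists were chosen with earlier results of these data known. The steps were tested on simulated data in which only brighter spots were changed. That test did not cover the ratios of dim genes.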

Additional observations from a re-analysis of the deposited data

How the results depend on the processing

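The number of mitotic genes lower by the 2-fold rule was 2. Among the 18 detected genes, 9 of them detected through the wild-type pool alone, it was 7 with a normexp constant of 16 (4.68% of all detected genes) and 13 with Feature Extraction's own ratios (6.75%), counts that include 2 and 7 of those 9. It was 6 of 9 measured genes in the deposited series table (3.45% of its genes), and 11 under the looser rule of 1.5-fold with no minimum on a single array (7.75%). The 11 include Ccna2, Cenpa, Cenpe and Cenpf, which were detected through the wild-type pool alone. Within single dyes, chosen after seeing the data, the number was 7 in Cy3 and 1 in Cy5. With either array left out the number ranged from 2 with array 2 alone (4.24%) to 6 with array 1 alone (4.31%). The 6 include Cenpe. The number stayed at 2 without background subtraction (3.08%), without the filter on dim probes (1.54% of all genes) and with all probes averaged (3.33%). Under median centring the 2 were Birc5 and Cenpe (2.91%). In every setting run, 0 mitotic genes were higher by the rule.

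The median of -0.39 became -0.26 without background subtraction, -0.56 with a constant of 16, -0.42 under median centring, -1.05 with Feature Extraction's ratios and -0.35 with all probes averaged. It was -0.54 in Cy3, -0.35 in Cy5 and -1.24 in Cy3 without a constant (31 genes). Over the 9 genes above background in both pools it was -0.85, and -1.32 in the series table. With either array left out it ranged from -0.42 to -0.40. Over the whole array 642 genes passed the rule, against 1247 with Feature Extraction's ratios, 393 above background in both pools, 1549 under the looser rule and 860 to 1049 with either array left out. With a positive and significant signal as the criterion, 1 in place of 3 mitotic genes was seen in Cy3 of the wild type alone. In Cy5 by that criterion, 29 were seen in the wild-type pool and 22 in the transgenic pool, against 61.3% and 57.1% of all genes. Of these, 8 were seen in the wild type alone and 1 in the transgenic pool alone, against 2836 and 1478 of 31993 genes. The S phase counts in Cy5 were 27 and 23 of 27. The constant shrinks ratios of dim genes by construction. The causes of the other shifts were not tested. Signal over background limits the genes near the Cy5 background, and 1 pool per genotype leaves the spread between mice unknown.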
